A study of Mus musculus with 4 samples.

Results

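The stretch from chr1:72083201 to 72870400 (mouse genome mm9) spans 787.2 kb and holds the genes Xrcc5 and Rpl37a. All pairs of bins with both bins inside this stretch were taken, which gave 123 bins and 7626 bin pairs, out of 155961 pairs in the captured region of chromosome 1 (558 bins, chr1:72083201-75654400) and 930930 pairs in all captured regions. The first bin of the stretch is also the first bin of the captured region. Members were chosen by coordinates and not by measured contact. Contact was measured with tiled Capture-C, in which crosslinked chromatin is cut, religated and enriched with tiled oligonucleotides, so that each read pair reports a ligation between 2 sites.

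Each of the 4 libraries came from E14 mouse embryonic stem cells (mESCs). All cells carried TetO and LacO operator arrays on chromosome 15, a parental deletion of CTCF sites on that chromosome, and RAD21, a subunit of cohesin, tagged with HaloTag and FKBP on both alleles. Line 1B1 had cassettes of 3 CTCF sites next to the arrays and no resistance gene promoters, 1A2 had neither, and 1F4 had no cassettes but kept the promoters. The fourth library, 1B1 -cohesin, was 1B1 after 2 h with 500 nM dTAG-13, which sends the tagged RAD21 to degradation, whereas the other 3 libraries were untreated. Each line is 1 clone, the tagged repressors were integrated at random positions, and none of the labelled edits lies in the interval. With 1 library per group no test across replicates exists, so differences between 1B1 -cohesin and 1B1 are set against the counting error of the reads and against the differences among the 3 untreated lines. All read counts were recovered from the deposited values, and errors given after ± are Poisson counting errors.

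By the loop extrusion model, cohesin reels in chromatin until it meets CTCF bound to DNA, which produces domains with boundaries and focal contacts between distant sites. Contacts between active promoters have also been described that do not follow from this process. Capture-C reports both as contact above the mean at the same genomic separation.

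The interval held the 5′ ends of 8 protein-coding genes in 7 bins of 6.4 kb. Mreg (72205807 to 72258881, minus strand) encodes melanoregulin, which acts in pigment granules. Pecr (72305741 to 72330888, minus), a peroxisomal reductase of fatty acid metabolism, and Tmem169 (72330943 to 72349678, plus), a transmembrane protein, are divergent and share a bin. Xrcc5 (72353995 to 72441526, plus) encodes the larger subunit of Ku, which binds broken DNA ends. March4 (72473686 to 72583504, minus), the longest gene here with 110 kb, encodes a membrane-bound ubiquitin ligase. Smarcal1 (72629825 to 72679708, plus) encodes an annealing helicase that acts at stalled replication forks. Ankar (72689554 to 72747138, minus) encodes a protein with ankyrin and armadillo repeats, and Rpl37a (72757834 to 72760383, plus), the shortest with 2.55 kb, a protein of the large ribosomal subunit. The 5′ end of Rpl37a lay 404 kb from that of Xrcc5. Another 6 annotated genes were noncoding, of which 4 were small nuclear RNA genes between Mreg and Pecr.

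Promoter sequences of Xrcc5, Smarcal1, Rpl37a and March4 are shown because the contacts below turn on the first 3 of these genes, with March4 as the gene between them. Each is the 250 bases before the annotated 5′ end, read 5′ to 3′ on the gene's strand, and capitals mark matches to the searched motifs on either strand (GGGCGG for the GC box, the letters of its name for the CCAAT box, GCGCATGC for NRF1, AAGATGGC for YY1 and TATAAA for the TATA box).
Xrcc5 promoter, chr1:72353745-72353994, plus strand: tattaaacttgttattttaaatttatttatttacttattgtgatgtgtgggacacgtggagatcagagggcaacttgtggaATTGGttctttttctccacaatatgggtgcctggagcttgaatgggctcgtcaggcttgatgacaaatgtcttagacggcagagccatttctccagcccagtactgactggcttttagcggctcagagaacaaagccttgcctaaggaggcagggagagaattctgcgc
Smarcal1 promoter, chr1:72629575-72629824, plus strand: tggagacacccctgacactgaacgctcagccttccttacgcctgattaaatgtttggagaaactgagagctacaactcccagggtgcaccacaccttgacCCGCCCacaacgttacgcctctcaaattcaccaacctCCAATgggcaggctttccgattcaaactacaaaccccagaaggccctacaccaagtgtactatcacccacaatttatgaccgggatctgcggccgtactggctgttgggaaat
Rpl37a promoter, chr1:72757584-72757833, plus strand: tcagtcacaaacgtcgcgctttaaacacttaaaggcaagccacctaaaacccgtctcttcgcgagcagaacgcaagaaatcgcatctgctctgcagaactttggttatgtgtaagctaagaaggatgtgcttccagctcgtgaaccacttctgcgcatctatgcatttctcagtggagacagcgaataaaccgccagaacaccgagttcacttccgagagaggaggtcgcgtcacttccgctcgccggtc
March4 promoter, chr1:72583505-72583754, minus strand: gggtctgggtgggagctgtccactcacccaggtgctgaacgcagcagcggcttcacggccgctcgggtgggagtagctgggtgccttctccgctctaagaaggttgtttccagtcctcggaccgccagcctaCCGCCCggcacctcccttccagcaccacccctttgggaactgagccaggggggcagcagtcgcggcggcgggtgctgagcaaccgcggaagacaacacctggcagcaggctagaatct
The Rpl37a promoter held 19 CpG dinucleotides and none of the 5 motifs. Xrcc5 had 5 CpG, Smarcal1 9 and March4 16, against a median of 9 over 1238 promoters of chromosome 1. GC content was 44.8% at Xrcc5, 52% at Smarcal1, 51.2% at Rpl37a and 66% at March4, with a median of 54.4% over the same promoters. CCAAT was found at Xrcc5 and Smarcal1 (33.4% of the 1238 promoters hold it) and a GC box at Smarcal1 and March4 (41.8%).

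The bins at which contacts and boundaries were called were searched for the CTCF core consensus, a degenerate motif, on both strands. No exact match lay within 1 bin of any of the 8 called bins, while 11.1% of the bins of the region had one that near and 2 of the 123 bins of the interval held one. Allowing 1 mismatch, a choice made after the exact matches had been counted, all 8 called bins had 1 to 3 matches within 1 bin, against 74.6% of the bins of the region. All matches within 1 bin of the Xrcc5, Smarcal1 and Rpl37a bins are shown, as these bins carried the strongest contacts, with the match in capitals and 20 bases on either side. Both strands occur near Xrcc5 and near Rpl37a.
Xrcc5 bin, first match, chr1:72353268-72353320, plus strand: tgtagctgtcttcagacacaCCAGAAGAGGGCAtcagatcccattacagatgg
Xrcc5 bin, second match, chr1:72353600-72353652, plus strand: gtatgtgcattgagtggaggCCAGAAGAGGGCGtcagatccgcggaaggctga
bin after the Xrcc5 boundary, chr1:72369293-72369345, minus strand: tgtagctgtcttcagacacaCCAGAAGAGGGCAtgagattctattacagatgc
bin before Smarcal1, chr1:72621895-72621947, minus strand: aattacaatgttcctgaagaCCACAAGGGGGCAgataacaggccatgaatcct
bin before Rpl37a, chr1:72750965-72751017, minus strand: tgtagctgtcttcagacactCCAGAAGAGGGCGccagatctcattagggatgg
Rpl37a bin, chr1:72757288-72757340, plus strand: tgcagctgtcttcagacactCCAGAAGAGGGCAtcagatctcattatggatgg
bin after Rpl37a, chr1:72763710-72763762, plus strand: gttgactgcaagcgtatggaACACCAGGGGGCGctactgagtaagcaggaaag
In the interval, 39 of the 60 matches (65%) had the letters CCAGAAGAGGGC, against 137 of 308 (44.5%) in the region. All 3 matches near Xrcc5 and 2 of the 3 near Rpl37a were of this kind. These letters are part of a mouse short interspersed repeat that has many copies, and no binding data were analysed here. Such matches say that the letters are present and nothing about occupancy.

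Of the 123 bins, 2 were left out of the balancing and are not used. The libraries held 289311 reads in the interval for 1A2, 378507 for 1F4, 284125 for 1B1 and 343080 for 1B1 -cohesin, which was 16.9% to 18.6% of the reads of the region. Between 94.8% and 96.2% of the 7381 pairs of balanced bins had reads, with a median of 7 to 11 reads per pair. Means over windows of 3 by 3 bins are therefore used for single sites. Over 5275 windows between 64 and 500 kb apart, Pearson's r of observed/expected contact was 0.920 to 0.924 among the untreated lines and 0.796 to 0.805 between each of these and 1B1 -cohesin. These windows overlap and share bins, so r is a description across windows.

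**Figure D1:**
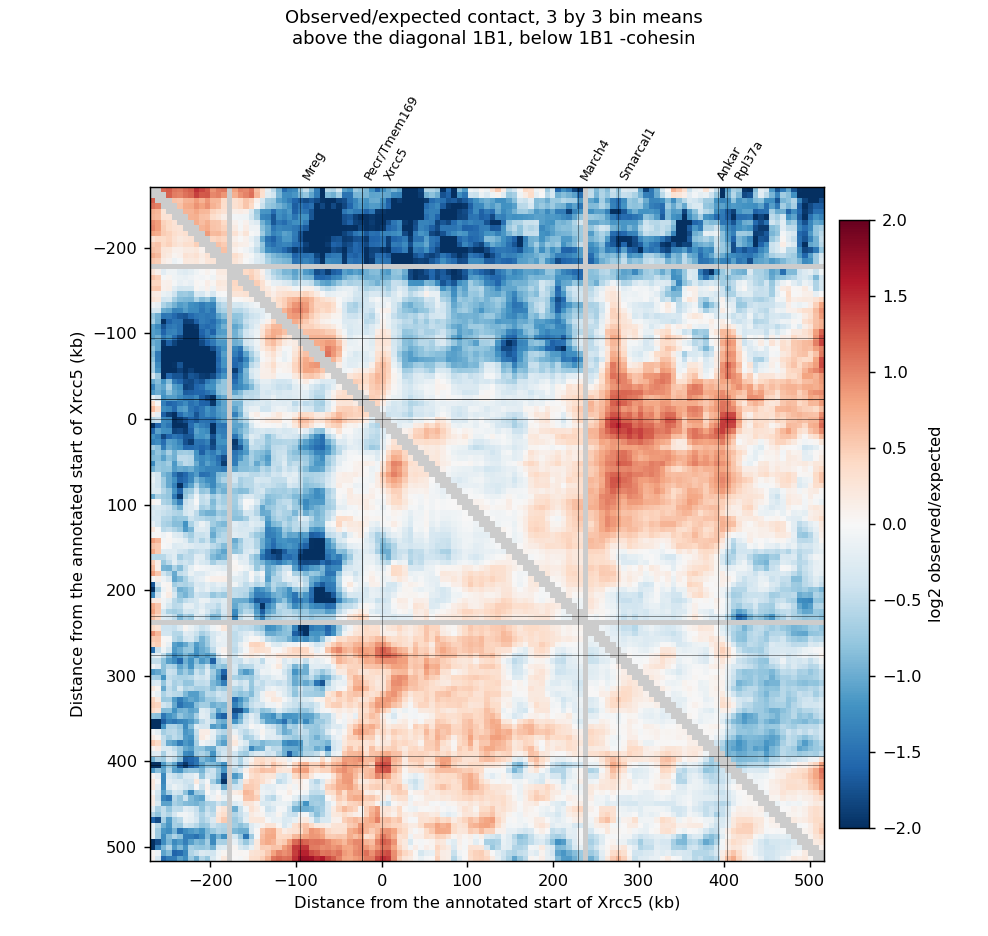
Observed/expected contact (log2 colour scale, mean over 3 by 3 bins) of the interval, with 1B1 above the diagonal and 1B1 -cohesin below it, and both axes in kb from the annotated start of Xrcc5. Within the block between Xrcc5 and Rpl37a the mean is 1.31 in 1B1 and 1.18 in 1B1 -cohesin, while contact across Rpl37a is higher in 1B1 -cohesin (1.01 against 0.824).

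Contact within the interval was lower in 1B1 -cohesin than in 1B1 between 100 and 500 kb and higher below 100 kb. After scaling each map to the same sum over the region beyond the first off-diagonal, mean contact between 250 and 500 kb was 7.92 for 1A2, 7.99 for 1F4, 8.48 for 1B1 and 5.95 for 1B1 -cohesin. The treated library thus lay below all 3 untreated lines, with a log2 ratio to 1B1 of -0.51 ± 0.019, whereas the untreated lines differed by at most 0.10. Between 100 and 250 kb the values were 14.3, 14.2, 14.4 and 11.9 in the same order, a log2 ratio of -0.28 ± 0.014. Between 25 and 100 kb they were 45.8, 46.0, 43.7 and 49.2, and 1B1 -cohesin was the highest (log2 0.17 ± 0.010). This sign depends on the scaling, since the deposited values without it gave -0.093. At 500 to 780 kb 1B1 -cohesin had 3.54 and lay within the range of the untreated lines (3.45, 3.38 and 3.85).

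Bin pairs of the region outside the interval gave log2 ratios of 0.20, -0.31, -0.46 and -0.37 in the same 4 bands, and the difference between interval and rest was not tested. From 50 to 500 kb, the slope of log10 contact against log10 separation was -0.871 for 1A2, -0.868 for 1F4, -0.791 for 1B1 and -0.992 for 1B1 -cohesin. Contact thus decayed most steeply in the treated library, by -0.20 ± 0.013 relative to 1B1, while 1B1 itself was 0.08 shallower than the other untreated lines. Fitted from 100 to 700 kb, the change was 0.089 and so had the other sign. Of the contact that bins of the interval made in the region at 2 bins and more, 72.7% for 1A2, 74.2% for 1F4, 70.7% for 1B1 and 74.2% for 1B1 -cohesin stayed inside the interval. The 3.44 points between 1B1 -cohesin and 1B1 were no larger than the difference between 1B1 and 1F4, which was -3.48 points.

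**Figure D2:**
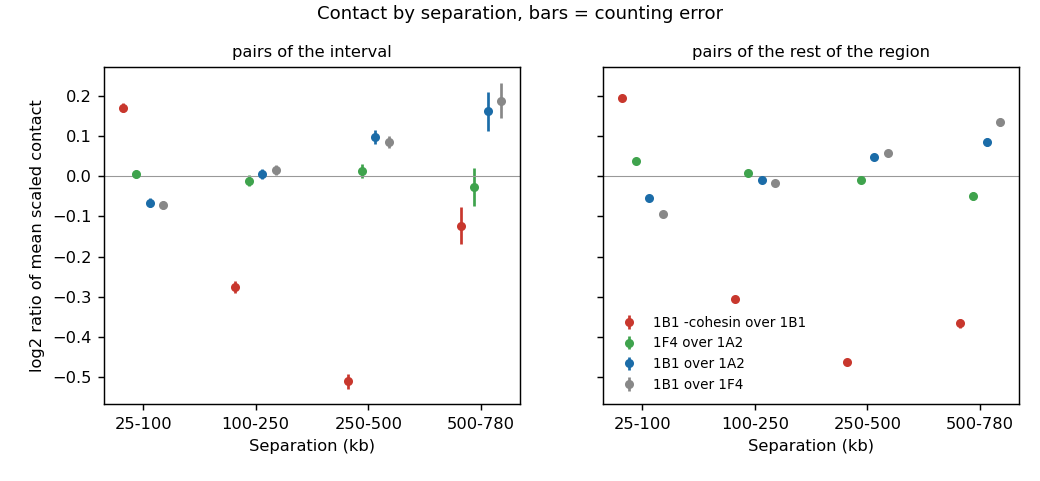
Log2 ratio of mean scaled contact (y axis) in 4 bands of separation in kb (x axis) for pairs inside the interval and pairs outside it, with bars for counting error. In the interval 1B1 -cohesin over 1B1 reaches -0.51 at 250 to 500 kb, while the contrasts among untreated lines stay between -0.07 and 0.19.

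Boundaries were mapped by insulation. For each bin this is the mean contact between the 20 bins before it and the 20 bins after it, divided by the mean of the region and given as log2, and low values mark bins across which little contact is made. The first 20 bins lie too near the edge of the captured region for such a square. Among the other 103 bins of the interval there were 2 boundaries, at Xrcc5 and at Rpl37a, 396.8 kb apart, and 2.51% of the 518 bins measured in the region were boundaries. The first measured bin (72211201) had lower values than both, with -0.89 for 1A2, -1.03 for 1F4, -0.87 for 1B1 and -0.89 for 1B1 -cohesin. It could not be called, because the profile starts there, and its value was alike in 1B1 and 1B1 -cohesin. Insulation at the Rpl37a bin (72755201 to 72761600, which holds the whole gene) was -0.71 for 1A2, -0.77 for 1F4, -0.66 for 1B1 and -0.26 for 1B1 -cohesin. The boundary was therefore shallowest in the treated library, by 0.40 ± 0.029, beside differences among the untreated lines of 0.11 and less. Over those 518 bins the same change had an SD of 0.26. The squares at this bin held 5124 to 6204 reads per library. The boundary was called at this bin under all 4 settings tried (20-bin and 10-bin squares, observed/expected values and recovered reads).

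The Xrcc5 boundary lay in the bin from 72358401 to 72364800, 4.41 kb inside the gene. Its insulation was -0.45 for 1A2, -0.43 for 1F4, -0.40 for 1B1 and -0.33 for 1B1 -cohesin. The change of 0.07 ± 0.028 was small beside that at Rpl37a, and untreated lines differed by up to 0.05. With recovered reads the change was 0.33 at Rpl37a and 0.14 at Xrcc5. On its upstream side the Xrcc5 minimum was only 0.31 deep, close to the limit of 0.3. It was not called with observed/expected values or with recovered reads. With 10-bin squares it moved to the next bin upstream, which holds the 5′ end of Xrcc5, where the values were -0.27, -0.30, -0.28 and -0.27 and showed no difference beyond the counting error. Those smaller squares called 5 boundaries among 113 bins, where 3.53% of the 538 bins measured in the region were called. The others lay past the 3′ end of Mreg (72198401), between Xrcc5 and March4 (72448001), 2.62 kb before Smarcal1 (72620801) and at Rpl37a. At Rpl37a the smaller squares gave -0.97, -1.02, -0.93 and -0.39. Past Mreg they gave -0.67, -0.84, -0.54 and -0.51, where 1F4 and 1B1 differed by more than 1B1 and 1B1 -cohesin did.

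Between the 2 boundaries, insulation was highest in an intron of March4 (72512001 to 72518400), a bin chosen after its values were seen. There it was 0.46 for 1A2, 0.48 for 1F4, 0.43 for 1B1 and 0.25 for 1B1 -cohesin. The rise from the Rpl37a boundary to this point was 1.16, 1.24, 1.09 and 0.51, so the profile of the treated library was flatter. Of the 103 bins of the interval with a value, 11 were higher by over 0.3 in 1B1 -cohesin than in 1B1 and 5 were lower by over 0.3, where 15.3% and 7.72% of the 518 bins of the region were. Bins with such differences were therefore not more frequent in the interval than in the region as a whole. No bin passed 0.3 in any contrast among the untreated lines, and the SD of the change was 0.19 for the treatment and 0.036 to 0.051 for those contrasts.

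**Figure D3:**
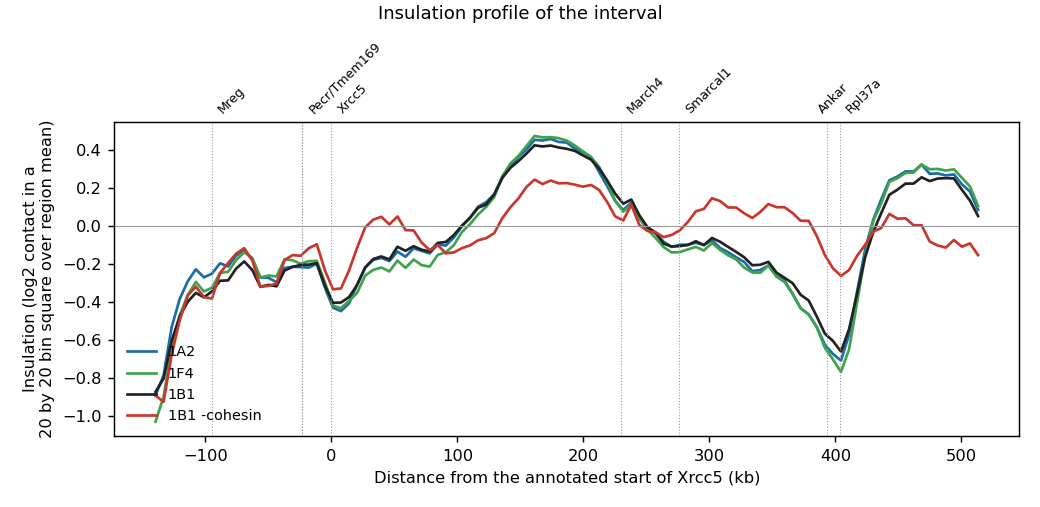
Insulation (y axis, log2) of each measured bin against distance from the annotated start of Xrcc5 in kb (x axis), 1 line per library. The 3 untreated lines nearly coincide, whereas at Rpl37a 1B1 -cohesin sits at -0.26 and the others between -0.77 and -0.66, and inside March4 it lies below them.

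The boundaries divide the interval into a part upstream of Xrcc5 (43 bins), a part from Xrcc5 to Rpl37a (61 bins) and a part downstream of Rpl37a (17 bins). Mean observed/expected contact between 64 and 500 kb within the Xrcc5 to Rpl37a part was 1.32 for 1A2, 1.36 for 1F4, 1.31 for 1B1 and 1.18 for 1B1 -cohesin, a log2 ratio of -0.15 ± 0.015. Contact of that part with the bins downstream of Rpl37a was 0.791, 0.787, 0.824 and 1.01. It was thus higher in the treated library than in all 3 untreated lines, by 0.30 ± 0.024 over 1B1, while untreated lines differed by 0.07 and less. Contact across the Xrcc5 boundary differed less, with 0.754, 0.741, 0.780 and 0.768 and a log2 ratio of -0.02 ± 0.022. Within the upstream part, mean contact between 64 and 500 kb was depleted in all 4 libraries (0.615, 0.575, 0.611 and 0.604). Its first 18 bins, measured also at shorter separations, had 1.45, 1.47, 1.58 and 1.23 among themselves. Within the short part downstream of Rpl37a contact was 1.56, 1.56, 1.42 and 1.10, and the log2 ratio of -0.37 ± 0.067 was the largest in size among the 6 blocks, from 28 bin pairs, with untreated lines differing by up to 0.14. Between the upstream and the downstream part it was 1.32, 1.35, 1.47 and 1.5, a ratio within the counting error (0.03 ± 0.078).

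The map was also cut into tiles of 3 by 3 bins. Of 421 tiles of the interval with 200 or more reads over the 4 libraries, 0 were 2-fold lower in 1B1 -cohesin than in 1B1 and 0 were 2-fold higher, where 2.2% and 0.791% of the 3412 tiles of the region were. At 1.5-fold, 28 tiles (6.65%) were lower, beside 10.8% in the region, and 21 (4.99%) were higher, beside 6.89%. Both shares were thus below those of the region, although this difference was not tested. Between the untreated lines 1F4 and 1A2, 3 tiles were 1.5-fold lower (0.967% in the region) and 5 were higher (1.32% in the region). At 2-fold, 1 tile was lower in 1F4 than in 1A2 (0.0586% in the region) and 1 was higher in 1B1 than in 1F4 (0.0293% in the region). At this minimum of 200 reads the widest differences of single tiles of the interval thus lay between untreated lines. Over all 421 tiles the log2 ratio nevertheless varied more between 1B1 -cohesin and 1B1 (SD 0.37) than among untreated lines (0.22 to 0.23). The counts of 0 depend on the minimum of 200 reads. With 100 or more reads, 5 of 542 tiles were 2-fold lower in 1B1 -cohesin than in 1B1 and 7 were 2-fold higher.

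The position of the tiles that were higher at 1.5-fold was uneven. Of the 21 higher tiles, 20 joined the Xrcc5 to Rpl37a part with the bins downstream of Rpl37a, where the median log2 ratio of 111 tiles was 0.35. Of the 28 lower tiles, 12 were among the 102 tiles that joined the upstream part with the Xrcc5 to Rpl37a part. Another 11 were among the 153 tiles within the latter, beside 6.65% of all 421 tiles. The placement of the lower tiles was not tested. The lowest tile joined the 3′ part of Xrcc5 (72428801 to 72448000) with the body of Smarcal1 (72640001 to 72659200) and had observed/expected values of 2.03 for 1A2, 2.05 for 1F4, 2.00 for 1B1 and 1.04 for 1B1 -cohesin. The highest joined the 3′ ends of Smarcal1 and Ankar (72678401 to 72697600) with a stretch between genes (72812801 to 72832000), with 0.614, 0.617, 0.644 and 1.24. Their log2 ratios were -0.94 ± 0.18 and 0.95 ± 0.22, given as a description because the tiles were chosen as the extremes of this contrast. The next lowest tile (72294401 to 72313600 in Pecr, with 72659201 to 72678400 in Smarcal1) had 1.23, 1.23, 1.83 and 0.964, so that 1B1 stood above the other untreated lines there (-0.92 ± 0.36).

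Contacts between gene bodies were grouped, and the blocks named here chosen, after values had been seen. By the mean over 1A2 and 1F4 the highest values were those of the short gene Rpl37a with Tmem169 (2.49, 2.53, 2.47 and 1.91) and with Pecr (2.44, 2.53, 1.96 and 2.20), from 4 and 5 bin pairs. This order did not hold in every library, and their log2 ratios of -0.37 ± 0.33 and 0.17 ± 0.28 leave no difference beyond 2 counting errors. Larger blocks were measured more precisely. Xrcc5 and Smarcal1 bodies had 2.09 for 1A2, 2.18 for 1F4, 2.01 for 1B1 and 1.51 for 1B1 -cohesin (log2 -0.41 ± 0.046). Smarcal1 with Pecr had 1.82, 1.81, 1.94 and 1.36, the lowest log2 ratio among the blocks of gene bodies (-0.51 ± 0.093). Xrcc5 with Ankar had 1.54, 1.82, 1.66 and 1.26. These 3 larger blocks were above the mean at their separation in every library and lowest in the treated one. March4, which lies between these genes, had 1.00, 1.01, 1.03 and 1.01 with Smarcal1. With Xrcc5 it had 1.02, 1.02, 1.02 and 0.888, lower in the treated library (-0.20 ± 0.034). With Ankar it had 1.19, 1.18, 1.12 and 1.26, higher in the treated library by 0.17 ± 0.046, and with Rpl37a 0.796, 0.877, 0.912 and 0.919. Mreg and March4 bodies had 0.507, 0.505, 0.524 and 0.536, and so met less often than the mean in all 4 libraries. The Rpl37a promoter with the Ankar body had 0.838, 0.854, 0.853 and 1.02, and with the Smarcal1 body 0.933, 0.958, 0.945 and 1.13, higher in the treated library by 0.26 ± 0.086 and 0.26 ± 0.081. With the Xrcc5 body the same promoter had 1.74, 2.06, 1.89 and 1.6, lower in the treated library (-0.23 ± 0.098), by no more than 1A2 and 1F4 differed (0.24). Of the other promoters, that of Xrcc5 had 2.20, 2.21, 2.09 and 1.53 with the Smarcal1 body (-0.45 ± 0.11) and 1.80, 1.98, 1.87 and 1.36 with the Ankar body (-0.46 ± 0.14). The Smarcal1 promoter had 2.39, 2.56, 2.29 and 1.72 with the Xrcc5 body (-0.41 ± 0.071).

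Promoter contacts were measured for the 19 pairs of promoter bins that are 5 bins or more apart. Of these, 6 had observed/expected contact of at least 1.5 in all 3 untreated lines, where 9.61% of 37400 windows of the region over the same separations had. Xrcc5 or the shared Pecr and Tmem169 promoter took part in all 6, and the partners were Smarcal1, Ankar and Rpl37a. This pattern rests on the cutoff, as Mreg with Smarcal1 had 1.85 for 1A2, 1.498 for 1F4 and 1.67 for 1B1. The Ankar and Rpl37a bins lie so close that their windows with the same partner share bin pairs, so these pairs are not separate measurements. Against the surrounding ring, Xrcc5 with Ankar had 1.22, 1.33, 1.03 and 1.16, and with Rpl37a 1.86, 2.17, 1.80 and 1.89. By library, 7 pairs passed 1.5 for 1A2, 6 for 1F4, 8 for 1B1 and 9 for 1B1 -cohesin, where 13.5%, 13.8%, 13.3% and 9.7% of those windows did.

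Xrcc5 and Rpl37a, 403.2 kb apart, had 2.89 ± 0.23 for 1A2, 3.64 ± 0.24 for 1F4, 2.69 ± 0.21 for 1B1 and 2.49 ± 0.25 for 1B1 -cohesin, from 166, 249, 180 and 104 reads. The treated value lay below all untreated ones, but its log2 ratio to 1B1 of -0.11 ± 0.18 was within the counting error. Among the 485 windows of the region at this separation the pair stood at the percentiles 99.0, 99.2, 99.0 and 99.8. Without division by the expected value the log2 ratio was -0.59, and over windows of 5 by 5 bins it was -0.23 ± 0.13.

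Xrcc5 and Smarcal1, 275.2 kb apart, had 2.97 ± 0.18, 2.89 ± 0.16, 2.66 ± 0.17 and 2.29 ± 0.19 in the same order of libraries, with a log2 ratio of -0.22 ± 0.15. Over windows of 5 by 5 bins the ratio was -0.35 ± 0.10 and so beyond 2 counting errors, whereas single bin pairs gave 0.07 ± 0.34. Their scaled contact, which is not divided by the mean at the separation, was 31.4, 30.6, 28.5 and 18.0, a log2 ratio of -0.66. The scaled contact was hence lower in 1B1 -cohesin than in the untreated lines, while the pair kept a high place among the 504 windows of the region at this separation, with percentiles of 99.8, 99.2, 99.4 and 99.8. Pecr and Tmem169 with Smarcal1, 300.8 kb apart, had 2.26, 2.03, 2.29 and 1.76 (-0.38 ± 0.17), and with Rpl37a, 428.8 kb apart, 1.92, 1.91, 1.90 and 1.72 (-0.15 ± 0.24). Xrcc5 with Ankar had 2.04, 2.44, 1.75 and 1.63, where 1F4 and 1B1 differed by more than 1B1 and 1B1 -cohesin did.

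At the other end of the order were pairs with March4, and the pair of Mreg with Ankar. Mreg with March4 had 0.490, 0.515, 0.797 and 0.627, from no more than 28 reads per library. March4 with Rpl37a had 0.852, 0.797, 0.657 and 0.764, and Mreg with Ankar 1.01, 0.709, 1.05 and 0.525, the last from 11 reads. March4 with its neighbour Smarcal1, 44.8 kb apart, had 0.917, 0.837, 0.805 and 0.924, and with Ankar 0.896, 0.955, 0.833 and 1.12. Among these 5 pairs the 4 libraries had no common order. None of the 6 pairs with March4 reached 1.5 in any library, beside 7, 6, 8 and 9 of the 13 pairs without it. Of the windows of the region over these separations, 13.5%, 13.8%, 13.3% and 9.7% did. A count of 0 among 6 pairs is near those shares. The bin next to the March4 promoter (72588801 to 72595200) was left out of the balancing in 3 of the libraries, so windows at March4 held fewer bin pairs than the others.

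Across the 19 pairs the median log2 ratio of 1B1 -cohesin to 1B1 was -0.11 (-0.26 with windows of 5 by 5 bins), with 12 lower and 7 higher, and 4 pairs differed by over 2 counting errors, beside 0 to 2 pairs in contrasts among the untreated lines. The largest of the 4 in size was Xrcc5 with March4 (1.2, 1.01, 1.36 and 0.836, log2 -0.70 ± 0.30), from 34 to 80 reads, and Pecr and Tmem169 with Smarcal1 was the other lower one. The 2 that were higher in 1B1 -cohesin were Mreg with Xrcc5 (1.35, 1.45, 1.23 and 1.57) and Smarcal1 with Rpl37a (1.27, 1.15, 1.25 and 1.56). Over windows of the region at the same separation, this change had an SD of 0.45 for Xrcc5 with March4. For the other pairs the SDs were 0.53 (Pecr and Tmem169 with Smarcal1, -0.38), 0.42 (Mreg with Xrcc5, 0.35) and 0.43 (Smarcal1 with Rpl37a, 0.32). Only Xrcc5 with March4 thus exceeded its SD, and the share of region windows beyond 2 counting errors was not counted. Without the division by the expected value the median was -0.58, with 15 of 19 lower. Most promoter pairs thus had less scaled contact in the treated library, and their contact relative to the mean at the same separation differed less.

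**Figure D4:**
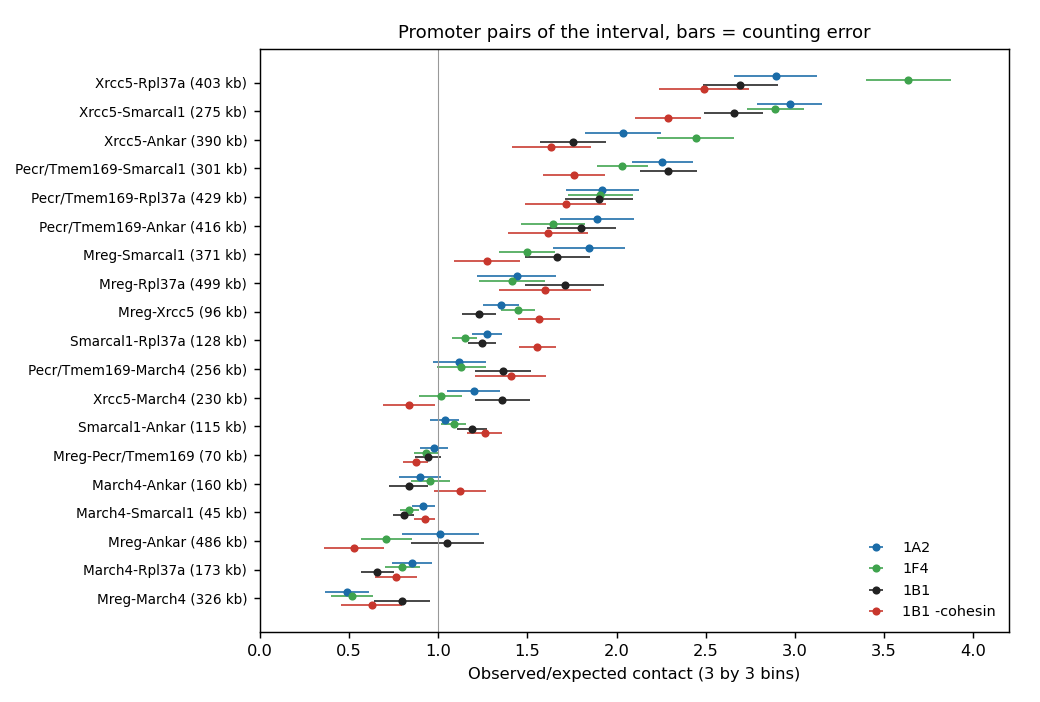
Observed/expected contact (x axis, linear) of the 19 promoter pairs (y axis, with their separation in kb), 1 point per library with bars for counting error. Xrcc5 with Rpl37a and with Smarcal1 lie farthest right in all 4 libraries, between 2.29 and 3.64.

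Focal contacts were windows of 3 by 3 bins at a local maximum with at least 1.5 times the contact of the surrounding ring in both 1A2 and 1F4. The interval had 6 such calls among 2000 windows with 100 or more reads in both lines (0.3%), against 0.34% in the region. The strongest joined the bins of the 2 boundaries, Xrcc5 (72358401) and Rpl37a (72755201), with a window/ring ratio of 1.89 for 1A2, 2.18 for 1F4, 1.73 ± 0.14 for 1B1 and 1.91 ± 0.19 for 1B1 -cohesin. It was no weaker against its ring in the treated library than in 1B1 or 1A2, and weaker than in 1F4. Its observed/expected contact was 2.84, 3.42, 2.55 and 2.44, from 162, 236, 175 and 103 reads.

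The next joined Xrcc5 with the bin of the Smarcal1 5′ end (72627201), 268.8 kb apart, with ratios of 1.71, 1.69, 1.60 and 1.68 and observed/expected contact of 3.11, 3.04, 2.98 and 2.32. Here the ratio to the ring was alike in all libraries while the contact relative to the mean at this separation was lowest in 1B1 -cohesin (log2 -0.36 ± 0.14). A bin 3.52 kb from the 5′ end of Mreg (72262401) and the bin of the Xrcc5 5′ end had 1.61, 1.76, 1.44 and 1.94. The bin at the 3′ end of Ankar (72684801) and a bin 1.66 kb beyond its 5′ end (72748801), 64 kb apart, had 1.57, 1.79, 1.56 and 1.57. A bin in Pecr (72300801) and Smarcal1, 326.4 kb apart, had 1.54, 1.80, 1.49 and 1.65. The remaining call, given so that all 6 are shown, joined Smarcal1 with the bin before the Ankar 5′ end (72748801) and had 1.63, 1.54, 1.59 and 1.36.

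Of these 6 contacts, 5 had a higher ring ratio in 1B1 -cohesin than in 1B1, and the median log2 change was 0.10. The 46 calls of the region outside the interval had a median change of -0.18, with 29 lower and 17 higher, and the difference was not tested. The median ratio in the interval was 1.62 for 1A2, 1.77 for 1F4, 1.58 for 1B1 and 1.67 for 1B1 -cohesin, so that the treated library stood within the range of the untreated lines. The 2 lines used for calling are raised by the choice itself, and 1B1 and 1B1 -cohesin were not used for it. The sign of this median depends on the settings, since it was -0.05 with single bin pairs, -0.01 with calls in 1F4 alone and -0.30 with the mean at the separation as background in place of the ring.

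Called in each library on its own, the interval had 8 focal contacts for 1A2, 12 for 1F4, 8 for 1B1 and 12 for 1B1 -cohesin. These were 0.398%, 0.466%, 0.343% and 0.743% of the windows with 100 or more reads in that library, beside 0.498%, 0.443%, 0.424% and 0.51% in the region. The number of such windows differed between libraries, with 2009, 2574, 2333 and 1615 in the interval, and no test was made of these shares. Near the common calls lay 5 of the 8 for 1A2, 6 of the 12 for 1F4 and 4 of the 8 for 1B1. For 1B1 -cohesin 6 of the 12 did, the same share as in 1F4 and 1B1. The treated library thus had 6 calls that did not lie near the common ones. Among those 6, named after their values were seen, 3 spanned Rpl37a, and the strongest joined the Smarcal1 5′ end (72627201) with the last bin of the interval (72864001). Its ratio was 1.24 for 1A2, 1.56 for 1F4, 1.31 for 1B1 and 1.84 for 1B1 -cohesin. The 1F4 value was itself above the threshold, so this contact was not confined to the treated library.

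**Figure D5:**
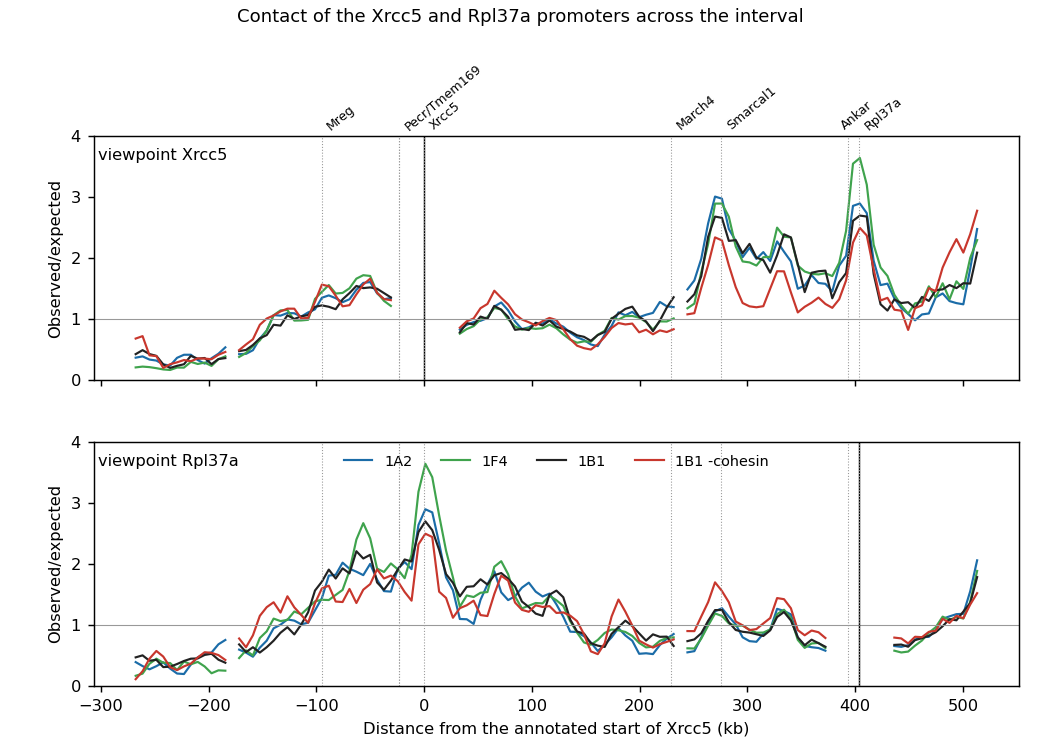
Observed/expected contact (y axis) of the Xrcc5 and Rpl37a promoter bins with each bin of the interval, against distance from the annotated start of Xrcc5 in kb (x axis), 1 line per library. Peaks at the promoters of Smarcal1 and Rpl37a in the Xrcc5 profile, and at Xrcc5 in the Rpl37a profile, are present in all 4 libraries (2.49 to 3.64 for the Xrcc5 and Rpl37a pair).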

How the data were processed

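Tiled Capture-C (MboI digestion, SureSelect capture) was performed on 4 libraries, 1 per group, grouped by the sample labels. The authors mapped read pairs to mm9 with HiC-Pro 2.11.4, used unique valid pairs within the target regions, counted them in bins of 6.4 kb and balanced the maps with ICE. The deposited value is therefore a balanced contact signal per bin pair, and each library was scaled to nearly the same sum (14999992 to 15000019), so that this sum does not carry the depth. Bin positions came from a deposited table, whose last bin on chromosome 1 ends at 197195432, the length of that chromosome in NCBIM37.

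Reads were recovered by solving for 1 factor per bin. All deposited signal values (100%) came within 0.05 of a whole read, with a largest deviation of 0.0086 reads, and the libraries held 3214144 (1A2), 4089968 (1F4), 3234581 (1B1) and 3622612 (1B1 -cohesin) read pairs. Reads had no molecular identifiers, so the Poisson errors cover counting error only.

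Observed/expected contact is the balanced value over the mean at that separation in the chromosome 1 region. A boundary was the bin with the lowest insulation (averaged over 1A2 and 1F4) among the 10 bins to its left and right, from which the profile climbed by 0.3 or more on both sides inside 30 bins. Focal contacts exceeded 1.5 times their ring (inner edge 5 by 5, outer edge 11 by 11 bins) in 1A2 and in 1F4, lay 60 kb or more apart and had 100 or more reads in each. Tiles lay 76.8 kb or more apart. The scripts were tested on simulated data. Genes came from the mm9 GENCODE annotation and sequences from NCBIM37. Python 3.11.15, NumPy 2.4.6, pandas 2.3.3, SciPy 1.17.1 and Matplotlib 3.10.9 were used.

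Named items were all protein-coding genes with a 5′ end in the interval, all boundaries, the 5 strongest focal contacts by window/ring ratio, and the 5 highest and 5 lowest promoter pairs, by means over 1A2 and 1F4. Members and lists were chosen with earlier results of these data known. Alternatives covered scaling, balancing, window and square sizes, expected values, thresholds and read minimums. No p-values were computed.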

Additional observations from a re-analysis of the deposited data

Results flagged for a closer look

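The maps also hold read pairs that join bins of the interval with captured bins of other chromosomes, which no comparison above uses. In 1B1 -cohesin 582 such reads were found, 0.132% of the reads of these bins. Untreated libraries had shares of 0.0774% (1A2, 305 reads), 0.0803% (1F4, 401 reads) and 0.101% (1B1, 411 reads). The treated library was therefore above the untreated lines, with 1 library per group and no test.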

How the results depend on the processing

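No paired analysis was possible because each group had 1 library, and none could be left out for the same reason. Values are 1B1 -cohesin against 1B1, as log2 unless said otherwise, and for all that moved the cause was not tested. With the values as deposited, the bands gave -0.093 (25 to 100 kb, sign reversed), -0.54 (100 to 250 kb), -0.78 (250 to 500 kb) and -0.39 (500 to 780 kb). With recovered reads these bands, leaving out 100 to 250 kb, gave 0.26, -0.46 and 0.0075 (the last with its sign reversed), and without the first 20 bins 0.22, -0.64 and -0.22. The slope change reversed to 0.089 when fitted from 100 to 700 kb. The insulation change at Xrcc5 was 0.14 with recovered reads, and that at Rpl37a 0.54 with 10-bin squares and 0.33 with recovered reads. Boundaries numbered 5 with 10-bin squares, 1 with observed/expected values and 1 with recovered reads. Focal calls numbered 21 with single bin pairs and 12 with 1F4 alone, and their median change was -0.30 against the mean at the separation. The median of promoter pairs was -0.42 with single bin pairs and -0.58 without an expected value, where Xrcc5 with Rpl37a had -0.59 and Xrcc5 with Smarcal1 -0.66. The share of contact kept differed by 3.98 points at all separations and by 4.95 points with recovered reads. Tiles lower and higher numbered 28 and 21 at 1.5-fold, and 5 and 7 of 542 at 2-fold with 100 or more reads, beside 215 and 138 of 5951 in the region. In 19 other cases values moved by no more than 1.96 counting errors of the value given above, or counts by no more than 1.5 times. Some of these moves were large against the value itself. With windows of 5 by 5 bins the median of promoter pairs was -0.26 ± 0.044, Xrcc5 with Smarcal1 -0.35 and Xrcc5 with Rpl37a -0.23. Xrcc5 with Smarcal1 was 0.07 with single bin pairs, and the median of focal contacts was -0.05 with single bin pairs and -0.01 with 1F4 alone, all with a change of sign. Depth limits single promoter pairs, of which Mreg with Ankar had 11 reads in 1B1 -cohesin.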

Other observations

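The first 18 bins of the interval (115.2 kb), which hold no annotated coding 5′ end and lie at the edge of the captured region, had observed/expected contact with the rest of the interval of 0.461 for 1A2, 0.437 for 1F4, 0.465 for 1B1 and 0.625 for 1B1 -cohesin (log2 0.43 ± 0.041). Within themselves they had 1.45, 1.47, 1.58 and 1.23 (log2 -0.36). Each pair entered this block in both orders, so its counting error is left out. This stretch was chosen after its values were seen. The treated library had more contact of these bins with the rest and less among themselves than each untreated line.

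At the other end, the last 3 bins (72851201 to 72870400) lie just before Igfbp2, whose 5′ end is 0.677 kb past the interval. They were chosen after values had been seen, and the Ankar promoter was not measured with them. With these bins the Mreg promoter had 1.57, 1.53, 1.87 and 2.91, in the same order of libraries, the Xrcc5 promoter 1.82, 2.00, 1.58 and 2.39, and the Smarcal1 promoter 0.986, 0.948, 0.916 and 1.35. The shared Pecr and Tmem169 promoter had 1.23, 1.67, 1.66 and 2.00. Those 4 promoter bins had their highest value in 1B1 -cohesin, with log2 ratios to 1B1 of 0.64 ± 0.27 for Mreg, 0.60 ± 0.22 for Xrcc5, 0.56 ± 0.19 for Smarcal1 and 0.27 ± 0.23 for Pecr and Tmem169. The last of these was smaller than the difference between 1F4 and 1A2 (0.44 ± 0.24). For the first 3 the untreated lines differed by at most 0.29 (Mreg), -0.34 (Xrcc5) and -0.11 (Smarcal1). Over windows of the region 230.4 kb apart, as Smarcal1 and the middle of these bins are, the change from 1B1 had an SD of 0.45. At 499.2 kb, close to the 505.6 kb of Xrcc5, the SD was 0.62. The Rpl37a promoter, which lies nearest, had 1.55, 1.38, 1.36 and 1.33, and the March4 promoter 0.735, 0.366, 0.601 and 0.603.

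A bin of the interval held a median of 16 MboI sites (6 to 33). Across the 121 balanced bins, Pearson's r of the reads per bin in 1B1 was 0.498 with MboI sites and 0.272 with GC content. Neighbouring bins share a library and base composition, so these are descriptions, and the balancing divides each bin by its own factor.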
